A study of Mus musculus with 21 samples.

Results

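The genes described here are 10 of the 34236 gene symbols in the count table. These genes are the 5 Rel-family subunits of NF-kB (Rela, Relb, Rel, Nfkb1 and Nfkb2), the inhibitors Nfkbia and Tnfaip3, the nuclear IkB gene Nfkbiz, and the kinases Ikbke and Tbk1. They were taken by symbol, each symbol had a single row, and their levels are given as counts scaled to library size (CPM) after TMM scaling, which corrects each library's total for its composition. The set was selected on levels and fold changes measured in these libraries, so the values of the 10 genes are given as a description and read without p-values. Counts of calls among them appear only where other settings are listed at the end, and support nothing.

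NF-kB is a family of dimeric transcription factors that are held in the cytoplasm by IkB proteins. Signals from Toll-like, IL-1 and TNF receptors activate the IkB kinases, IkB is degraded, and the dimers enter the nucleus and switch on cytokine genes as well as the genes of their own inhibitors. In macrophages the same receptors also engage TBK1 and IKKε (the product of Ikbke), a pair of IKK-related kinases best known for phosphorylating the interferon regulatory factors.

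The libraries were made from macrophages sorted from kidneys of male C57BL/6J mice aged 24 weeks, within a sort time of 5 hours, without culture. Kidneys came from mice with renal artery stenosis (RAS), in which a cuff narrows the artery and leaves the kidney chronically ischemic, or from Sham-operated controls. F4/80+CD64+ cells were split by CD11b and CD11c into CD11chiMϕ and CD11cloMϕ, which the labels call monocyte-derived, and kidney-resident macrophages (KRM), after lineage-positive cells had been gated out. There were 3 Sham and 4 RAS libraries of CD11chiMϕ, 3 and 4 of CD11cloMϕ, and 4 and 3 of KRM. The labels do not say whether replicates came from separate mice or pools, so errors and p-values cover the spread between these libraries, which may be technical.

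Library totals ranged from 6891177 to 10120529 counts, apart from KRM Sham replicate 3 at 18592427. All 10 macrophage markers, Adgre1, Fcgr1 and Mertk among them, were counted in every group. A few libraries stood apart. KRM RAS replicate 1 lay nearer to a CD11chiMϕ RAS library (distance 0.882 on the log2 scale) than to the other KRM RAS libraries (1.56 or more). Replicate 1 of the other RAS groups also lay nearer to a Sham library of its population (0.879 in CD11chiMϕ and 0.853 in CD11cloMϕ) than to its own group (1.15 or more). Summed T and NK cell markers were 339 CPM in KRM RAS replicate 1, 41.3 and 35.1 CPM in KRM RAS replicates 2 and 3, and at most 3.25 CPM in KRM Sham. Distal nephron markers went the other way among the KRM RAS libraries, at 130 CPM in replicate 1 and 4491 and 3399 CPM in replicates 2 and 3, against 12.5 to 225 CPM in KRM Sham. CD11chiMϕ Sham replicate 3 held 18394 CPM of proximal tubule markers, against 303 and 308 CPM in its group, and 8018 CPM of macrophage markers, against 18906 or more. CD11cloMϕ Sham replicate 3 held 5686 CPM of proximal tubule markers, against 141 and 183 CPM. KRM Sham replicate 3 held 2557 CPM of them, against 416 to 508 CPM in its group, and 225 CPM of distal nephron markers, against 12.5 to 12.9 CPM. Replicate 3 was thus the highest Sham library for proximal tubule markers in each population. In bulk RNA a change in the number of contributing cells and a change in RNA per cell cannot be told apart.

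The promoters were searched for the kappaB consensus, the 10-base site that NF-kB dimers bind, because several of these genes are textbook NF-kB targets. RefSeq promoter windows (GRCm38.p6, 250 bases before to 50 bases after a start) were present for 7 of the 10 genes, in 10 windows, and Nfkb1, Nfkbiz and Relb were without one. A match on either strand was found in 6 windows of 4 genes, Tnfaip3, Rel, Nfkbia and Nfkb2, and overlapping matches were counted separately. Of all 32851 windows of this length 8.46% held a match. The bases before the start of Tnfaip3 (chr10:19015411-19015660, minus strand), with the matched bases at positions -125 and -12 in capitals, and those of Ikbke (chr1:131279564-131279813, minus strand), without a match, are shown because these genes had the largest RAS to Sham differences in KRM.

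Tnfaip3: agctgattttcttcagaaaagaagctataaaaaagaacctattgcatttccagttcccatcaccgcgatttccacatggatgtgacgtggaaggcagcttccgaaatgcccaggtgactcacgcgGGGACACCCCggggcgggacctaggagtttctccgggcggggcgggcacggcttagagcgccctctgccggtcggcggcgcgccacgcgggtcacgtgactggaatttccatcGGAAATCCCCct
Ikbke: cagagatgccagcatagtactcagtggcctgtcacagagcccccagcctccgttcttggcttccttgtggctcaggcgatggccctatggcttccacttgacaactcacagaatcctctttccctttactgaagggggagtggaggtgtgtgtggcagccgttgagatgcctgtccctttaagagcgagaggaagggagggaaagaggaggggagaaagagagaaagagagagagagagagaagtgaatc

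The matches of the other genes are shown in stretches of 30 bases that begin 10 bases before the match, again with matched bases in capitals. They are from Rel (chr11:23771042-23771071, minus strand), Nfkbia (chr12:55492657-55492686, minus strand) and Nfkb2 (chr19:46304688-46304717, chr19:46304716-46304745, chr19:46305449-46305478 and chr19:46305695-46305724, plus strand).

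Rel: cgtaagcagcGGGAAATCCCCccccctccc
Nfkbia: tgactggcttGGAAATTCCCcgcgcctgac
Nfkb2 at 46304688: ggatcgtcacGGGAATTCCCCccctcgggg
Nfkb2 at 46304716: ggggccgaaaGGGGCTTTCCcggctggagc
Nfkb2 at 46305449: tccgacggcaGGAATGTCCCcacaaaagcc
Nfkb2 at 46305695: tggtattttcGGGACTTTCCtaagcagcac

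A match is a run of letters and not a measured binding site. The windows of Rela and Tbk1, like that of Ikbke, held no such letters, which says nothing of sites elsewhere.

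Per transcript length, from the deposited log2 table turned back to TPM, Nfkbia was the most abundant of the 10 in every group, from 456 ± 54.5 TPM (SD, n = 4) in KRM Sham to 1869 ± 736 TPM (n = 3) in CD11cloMϕ Sham. Ikbke was the lowest in every group but CD11cloMϕ Sham, at 1.03 ± 0.377 TPM (n = 4) in KRM Sham. In CD11cloMϕ Sham it reached 35.0 ± 5.38 TPM (n = 3), beside 30.8 ± 4.17 TPM for Tbk1, and these overlapped. The KRM RAS replicate 1 entries of the 2 deposited tables did not correspond to each other, and which of them holds the labelled library was not settled, so that column was left out of these TPM values. On the log2 scale it held 3.55 for Ikbke, above 2.36 and 2.04 in replicates 2 and 3, and 9.56 for Nfkbia and 7.48 for Tnfaip3, both above the Sham columns, unlike the counts. Every value of KRM RAS replicate 1 below is from the counts and carries this doubt.

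**Figure D1:**
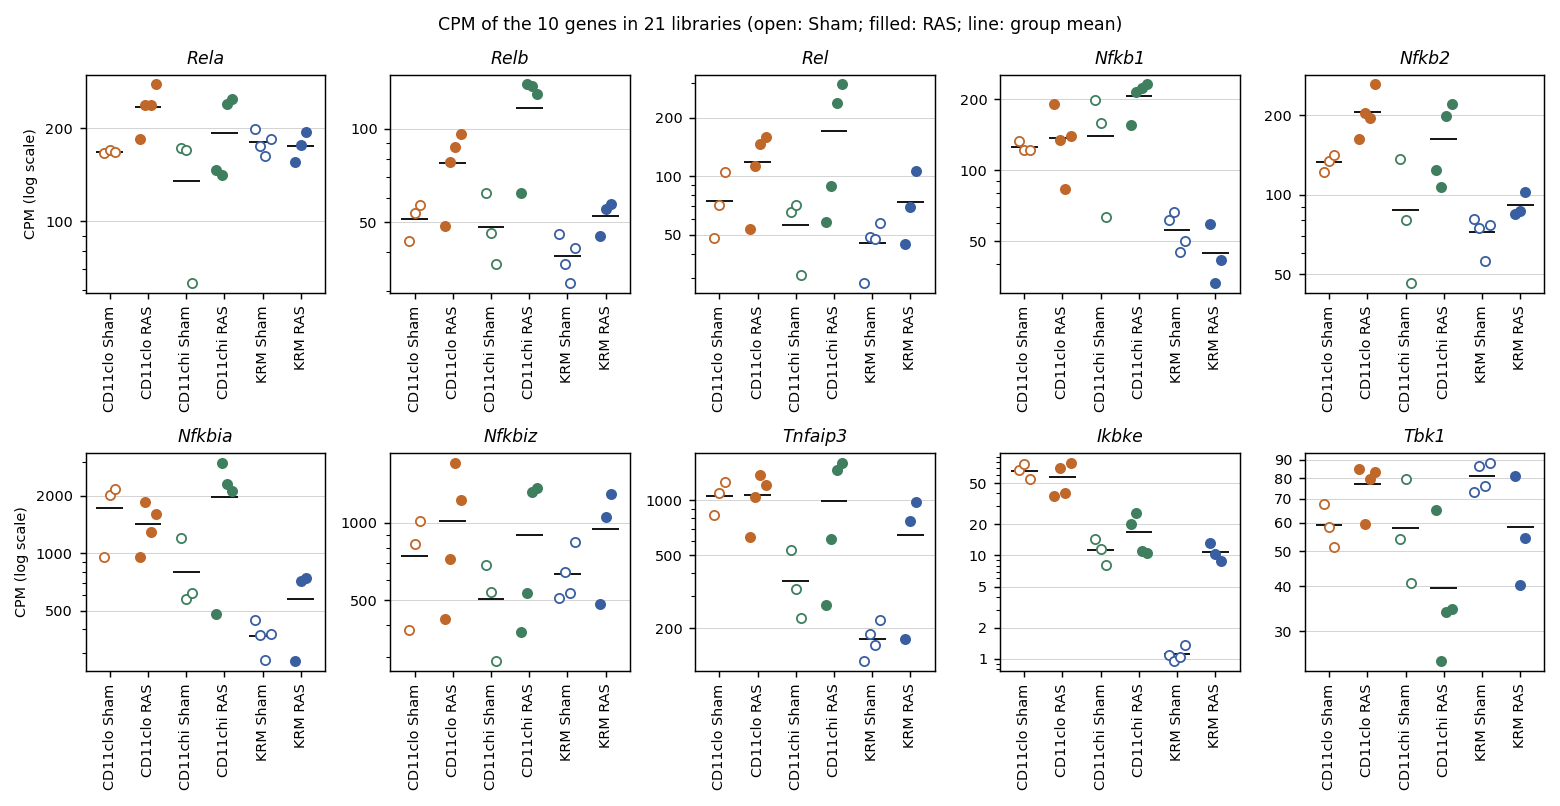
CPM (log scale) of each of the 10 genes in the 21 libraries, by population and treatment, with open points for Sham, filled points for RAS and a line at each group mean. Ikbke lay between 0.954 and 1.36 CPM in KRM Sham and between 8.90 and 13.2 CPM in KRM RAS, while Rela lay between 156 and 199 CPM in all 7 KRM libraries.

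Ikbke, which encodes IKKε (chr1:131254343-131279606, GRCm38), ranged from 0.954 to 78.8 CPM over the 21 libraries. In CD11cloMϕ it was at 66.4, 76.0 and 54.4 CPM in Sham and 37.9, 70.6, 39.9 and 78.8 CPM in RAS. In CD11chiMϕ it was at 14.4, 11.6 and 8.05 CPM in Sham and 20, 25.5, 11 and 10.6 CPM in RAS. In KRM it was at 1.08, 0.954, 1.05 and 1.36 CPM in Sham, from 9, 9, 21 and 13 counts, and at 13.2, 10.3 and 8.90 CPM in RAS, from 134, 118 and 97 counts. All KRM RAS libraries lay above all KRM Sham libraries, within the range of CD11chiMϕ Sham and below every CD11cloMϕ library. The order of the Sham groups was CD11cloMϕ, CD11chiMϕ, KRM, without overlap between neighbours. Ikbke passed the filter on low counts in the KRM comparisons mainly through the other group, since 2 of the 4 KRM Sham libraries reached its CPM minimum.

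Tbk1, the closest relative of IKKε, ranged from 24.7 to 88.3 CPM over the 21 libraries. It measured 67.9, 58.3 and 51.5 CPM in CD11cloMϕ Sham and 85.1, 59.7, 79.5 and 83.3 CPM in RAS. In CD11chiMϕ Tbk1 was at 54.0, 79.6 and 40.9 CPM in Sham and 65.3, 24.7, 33.9 and 34.5 CPM in RAS. In KRM it was at 73.2, 86.6, 76.1 and 88.3 CPM in Sham and 81.0, 40.2 and 54.4 CPM in RAS. Sham and RAS overlapped in each population, and KRM RAS replicate 1 sat with the Sham libraries while replicates 2 and 3 lay below them. Over the 21 libraries the log2 levels of Ikbke and Tbk1 had a Pearson r of -0.16, a description over libraries that share populations and depth.

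Tnfaip3 encodes A20, the ubiquitin-editing enzyme that shuts off signalling upstream of NF-kB. It was at 828, 1100 and 1258 CPM in CD11cloMϕ Sham and 634, 1050, 1372 and 1220 CPM in RAS. In CD11chiMϕ Tnfaip3 measured 534, 326 and 226 CPM in Sham and 267, 614, 1472 and 1609 CPM in RAS. In KRM it measured 132, 185, 162 and 222 CPM in Sham and 174, 773 and 985 CPM in RAS. KRM RAS replicate 1 lay inside the Sham range, and the other KRM RAS libraries stood at 4.41 and 5.62 times the Sham mean. CD11chiMϕ RAS was split in the same manner, with replicate 1 within the Sham range.

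Nfkbia encodes IkBα, the inhibitor that NF-kB itself resupplies. In CD11cloMϕ it was at 958, 2012 and 2172 CPM in Sham and 958, 1843, 1292 and 1599 CPM in RAS. In CD11chiMϕ the values were 1206, 577 and 618 CPM in Sham and 481, 2969, 2287 and 2107 CPM in RAS. In KRM they were 445, 371, 275 and 378 CPM in Sham and 272, 716 and 738 CPM in RAS. Replicate 1 was the lowest RAS library of CD11chiMϕ and KRM and lay below every Sham library there, while the remaining RAS libraries lay above all Sham libraries of their population.

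Nfkbiz encodes IkBζ, a nuclear IkB protein that helps NF-kB activate secondary genes such as Il6. It measured 383, 830 and 1018 CPM in CD11cloMϕ Sham and 422, 720, 1714 and 1223 CPM in RAS. For CD11chiMϕ the values were 688, 538 and 289 CPM in Sham and 375, 531, 1318 and 1363 CPM in RAS. For KRM they were 508, 646, 535 and 841 CPM in Sham and 484, 1058 and 1291 CPM in RAS. The groups overlapped in all 3 populations, and KRM RAS replicate 1 was again below the Sham libraries.

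Among the subunits, Rela (p65, the main activating subunit) kept to 156 to 199 CPM in the KRM libraries. It was at 167, 171 and 167 CPM in CD11cloMϕ Sham and 184, 238, 238 and 277 CPM in RAS, without overlap. In CD11chiMϕ Rela was at 173, 170 and 63.4 CPM in Sham and 146, 141, 240 and 248 CPM in RAS. In KRM it was at 199, 176, 163 and 184 CPM in Sham and 156, 177 and 195 CPM in RAS. The low CD11chiMϕ value was Sham replicate 3, the library with the proximal tubule markers.

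Relb encodes the partner of p52 in the noncanonical pathway. It was at 43.5, 53.4 and 56.7 CPM in CD11cloMϕ Sham and 48.7, 78.0, 87.6 and 96.0 CPM in RAS. In CD11chiMϕ Relb stood at 62.1, 46.2 and 36.6 CPM in Sham and 62.0, 139, 137 and 130 CPM in RAS. In KRM it stood at 45.8, 36.6, 31.9 and 41.1 CPM in Sham and 45.1, 55.0 and 57.1 CPM in RAS. In each population RAS replicate 1 fell inside the Sham range and the other RAS libraries lay above it.

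Rel encodes c-Rel, the subunit most tied to haematopoietic cells. It measured 48.3, 71.3 and 104 CPM in CD11cloMϕ Sham and 53.5, 112, 146 and 159 CPM in RAS. In CD11chiMϕ Rel was at 65.4, 71.0 and 30.9 CPM in Sham and 58.1, 88.5, 236 and 296 CPM in RAS. In KRM it was at 28.3, 48.9, 47.7 and 57.5 CPM in Sham and 44.5, 69.1 and 106 CPM in RAS. As for Relb, RAS replicate 1 fell inside the Sham range in each population and the other RAS libraries lay above it.

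Nfkb1 (p105, the precursor of p50) was at 33.4 to 66.3 CPM in KRM and at 63.6 to 231 CPM in the monocyte-derived populations. It was at 134, 122 and 122 CPM in CD11cloMϕ Sham and 192, 135, 83.04 and 140 CPM in RAS. In CD11chiMϕ Nfkb1 measured 199, 159 and 63.6 CPM in Sham and 156, 214, 223 and 231 CPM in RAS. In KRM it measured 61.5, 66.3, 45.0 and 50.2 CPM in Sham and 59.3, 33.4 and 41.6 CPM in RAS. Only CD11chiMϕ Sham replicate 3, at 63.6 CPM, came into the range of KRM Sham.

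Nfkb2 (p100, the precursor of p52) was at 121, 135 and 142 CPM in CD11cloMϕ Sham and 162, 203, 195 and 261 CPM in RAS. In CD11chiMϕ Nfkb2 was at 137, 80.1 and 46.4 CPM in Sham and 124, 107, 198 and 220 CPM in RAS. In KRM it was at 80.6, 74.5, 56.3 and 76.4 CPM in Sham and 84.8, 86.5 and 102 CPM in RAS. RAS lay above Sham without overlap in CD11cloMϕ and KRM and overlapped it in CD11chiMϕ.

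The comparison of RAS with Sham addresses how each population's NF-kB genes stood in the ischemic kidney. In KRM the log2 fold change of Ikbke was 3.37 ± 0.28 (SE; 3 RAS and 4 Sham libraries), and that of Tnfaip3 was 2.00 ± 0.51. Then came Rel at 0.80 ± 0.33, Nfkbia at 0.77 ± 0.35, Nfkbiz at 0.70 ± 0.34, Relb at 0.54 ± 0.16 and Nfkb2 at 0.45 ± 0.15. Values near 0 or below it were those of Rela at 0.07 ± 0.13, Nfkb1 at -0.21 ± 0.22 and Tbk1 at -0.37 ± 0.22. The median over the 10 genes was 0.62, against 0.02 over all 12852 genes tested. The groups did not overlap for Ikbke and Nfkb2, beside 27.6% of all genes tested, and RAS was the higher group for both, beside 10.4%.

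The fold changes in KRM moved with the library left out. Leaving out any 1 of the 7 libraries kept the log2 fold change of Ikbke between 3.17 and 3.47. That of Tnfaip3 lay between 1.53 and 2.40, that of Relb between 0.45 and 0.64, that of Nfkb2 between 0.33 and 0.52, and that of Rela between -0.04 and 0.12. Without KRM RAS replicate 1, Nfkbia moved to 1.06 ± 0.17, Rel to 1.01 ± 0.27, Nfkbiz to 0.97 ± 0.21 and Tbk1 to -0.70 ± 0.16. Relative to the KRM Sham mean, Ikbke stood at 11.9, 9.23 and 8.002 times in replicates 1 to 3, Tnfaip3 at 0.993, 4.41 and 5.62 times, and Nfkbia at 0.741, 1.95 and 2.01 times. On the log2(TPM + 1) scale of the deposited normalized table, which understates changes of low genes, limma gave Ikbke a log2 fold change of 1.64, and 1.2 without the column of replicate 1.

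**Figure D2:**
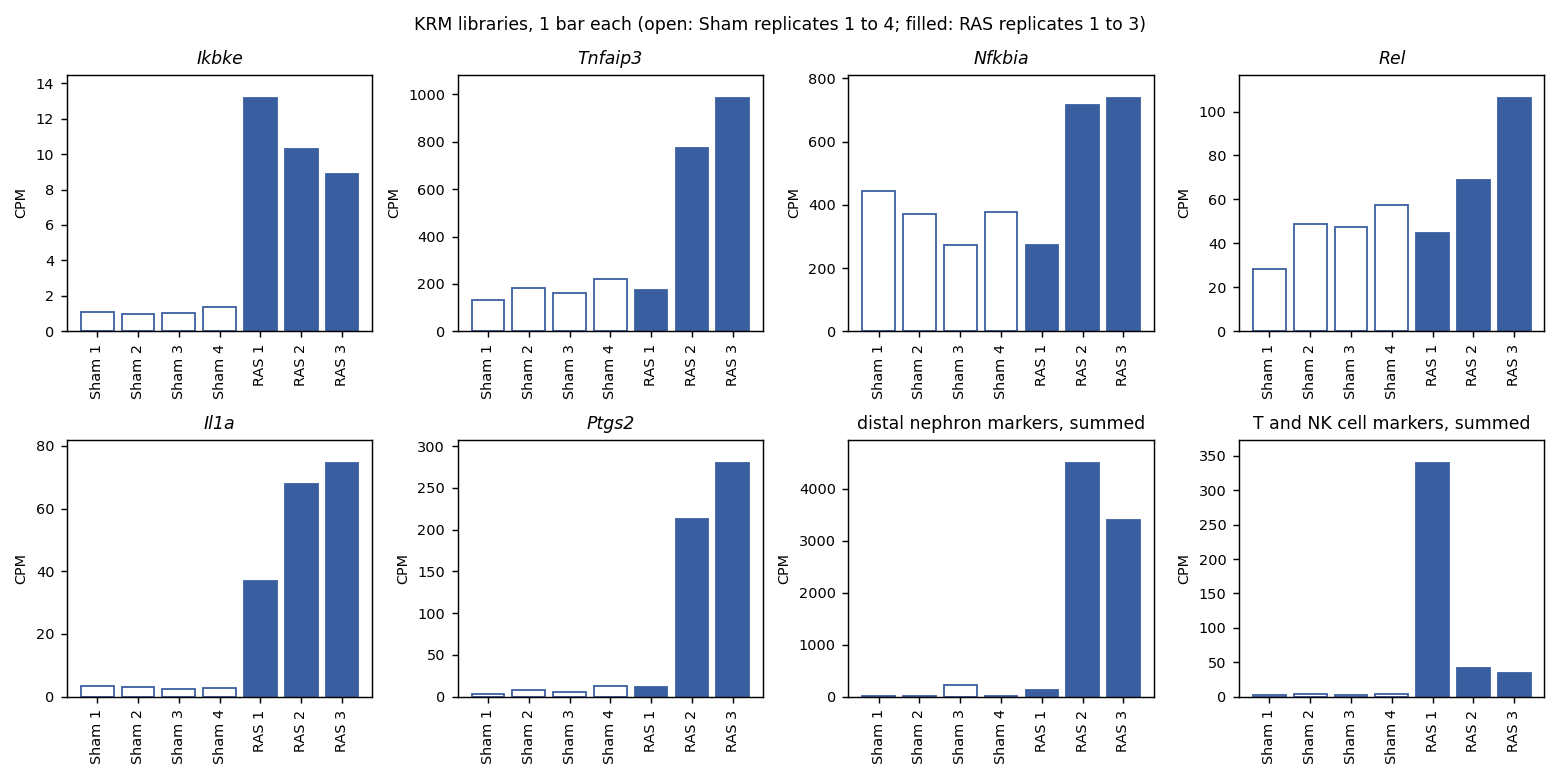
CPM in each of the 7 KRM libraries, 1 bar per library (open for Sham replicates 1 to 4, filled for RAS replicates 1 to 3), for Ikbke, Tnfaip3, Nfkbia, Rel, the targets Il1a and Ptgs2, and the summed distal nephron and T and NK cell markers. Ikbke stands at 8.90 to 13.2 CPM in all 3 RAS libraries, whereas Tnfaip3 stands at 174 CPM in RAS replicate 1, inside the Sham range, and at 773 and 985 CPM in the others.

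Markers of other cells moved with treatment in KRM, and their part in these differences was not tested. The counts of called markers that follow (adjusted p under 0.05 by edgeR) stand beside 7.77% of all genes called higher and 1.94% lower, and all calls fell from 1247 to 28 to 43 genes without KRM RAS replicate 2 or 3 or KRM Sham replicate 1, 2 or 4. All 7 T and NK cell markers were called higher in KRM RAS, summing to 35.1 to 339 CPM against 2.41 to 3.25 CPM in Sham. Of the 7 distal nephron markers 5 could be tested and 2 were called higher, of the 6 stromal markers 4 and 3, and of the 6 endothelial markers 4 and 2. Summed stromal markers reached 480 and 542 CPM in replicates 2 and 3, against 40.5 CPM in replicate 1 and at most 39.1 CPM in Sham. Ikbke was highest in replicate 1, where the distal nephron, stromal and endothelial sums were lowest and the T and NK cell, monocyte, neutrophil, B cell and macrophage sums were highest. The proximal tubule sum was also highest there, at 1502 CPM against 883 and 780 CPM, beside 416 to 2557 CPM in Sham. KRM RAS replicate 1 lay nearer to a CD11chiMϕ RAS library than to its own group, and CD11chiMϕ RAS held Ikbke at 10.6 to 25.5 CPM. Its counts also did not correspond to its normalized values. What these sums mean for Ikbke was not tested. Of the 6 dendritic cell markers 3 were called higher and 1 lower, and their sum was 158 to 219 CPM in RAS and 140 to 176 CPM in Sham. Of the 10 macrophage markers 1 was called higher and 1 lower, 9 had a negative log2 fold change, and their sum was 14662 to 19451 CPM in RAS and 18125 to 24150 CPM in Sham. The 6 B cell markers summed to 36.0 to 66.4 CPM in RAS and 83.9 to 129 CPM in Sham, without overlap. Of the 6 monocyte markers 1 was called higher and 1 lower, and their sum overlapped, at 565 to 988 CPM in RAS and 561 to 853 CPM in Sham, as did that of the 6 neutrophil markers, at 65.1 to 126 CPM and 90.4 to 117 CPM, with 1 of the 6 at 0 in both groups. The 12 genes of the dissociation response, such as Fos and Jun, summed to 24828 to 29103 CPM in RAS and 34156 to 51964 CPM in Sham.

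In CD11chiMϕ the log2 fold changes from Sham to RAS were 1.52 ± 0.59 for Rel, 1.36 ± 0.63 for Tnfaip3, 1.20 ± 0.62 for Nfkbia and 1.19 ± 0.34 for Relb (4 RAS and 3 Sham libraries). Smaller values were 0.81 ± 0.41 for Nfkb2, 0.74 ± 0.54 for Nfkbiz, 0.49 ± 0.43 for Ikbke, 0.48 ± 0.38 for Nfkb1, 0.44 ± 0.39 for Rela and -0.62 ± 0.38 for Tbk1. With each library left out in turn Ikbke ranged from 0.20 to 0.69, Nfkb1 from 0.16 to 0.81 and Rela from 0.12 to 0.65, and Tbk1 reached at most -0.35. Without Sham replicate 3 Nfkb1 was at 0.16, Rela at 0.12, Nfkb2 at 0.53 and Tbk1 at -0.79, and the median of the 10 was 0.50. All 10 overlapped between the groups, where 6.85% of all genes did not, and the median was 0.77 against -0.09 over all genes. No gene of the 12739 tested by edgeR passed the adjusted threshold (0%), although 1247 (9.79%) had an unadjusted p under 0.05 and DESeq2 called 188. Without RAS replicate 1 edgeR called 39 genes. The summed dendritic cell markers were 1084 to 5451 CPM in RAS and 393 to 1865 CPM in Sham, all 6 of them counted in both. The 7 T and NK cell markers summed to 78.2 to 245 CPM in RAS and 2.76 to 32.6 CPM in Sham, and the 6 stromal markers to 30.5 to 310 CPM and 18.7 to 25.8 CPM, both without overlap. The proximal tubule sum was 166 to 1193 CPM in RAS, against 303, 308 and 18394 CPM in Sham. The part of these cells was not tested.

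In CD11cloMϕ, the population with the highest Ikbke and Tnfaip3 in Sham, the log2 fold changes with RAS were -0.22 ± 0.28 for Ikbke and -0.01 ± 0.29 for Tnfaip3 (4 RAS and 3 Sham libraries). Nfkbia was at -0.29 ± 0.34. Higher values were 0.63 ± 0.40 for Rel, 0.62 ± 0.18 for Nfkb2, 0.58 ± 0.24 for Relb, 0.46 ± 0.16 for Rela, 0.43 ± 0.51 for Nfkbiz, 0.37 ± 0.17 for Tbk1 and 0.12 ± 0.26 for Nfkb1. Without Sham replicate 3 Rel was at 0.98, Nfkbiz at 0.75 and Nfkbia at -0.06, and Nfkb1 ranged from -0.10 to 0.31 with each library left out in turn. RAS lay above Sham without overlap for Nfkb2 and Rela, beside 4.45% of all genes above and 8.41% in either direction. No gene of the 12301 tested by edgeR was called (0%), 1102 (8.96%) had an unadjusted p under 0.05 and DESeq2 called 107. The median of the 10 was 0.40, against -0.02 over all genes. The T and NK cell markers summed to 12.2 to 40.1 CPM in RAS and 0.621 to 7.52 CPM in Sham, without overlap. The neutrophil markers summed to 1876 to 3615 CPM in RAS and 895 to 1943 CPM in Sham, with 4 of the 5 tested at an unadjusted p under 0.05 by edgeR. The dendritic cell markers summed to 131 to 448 CPM and 76.7 to 198 CPM, and the stromal markers to 9.47 to 400 CPM and 24.4 to 79.3 CPM. The B cell markers summed to 18.6 to 52.0 CPM in RAS and 13.8 to 16.5 CPM in Sham, without overlap. Endothelial markers summed to 20.1 to 194 CPM in RAS and 16.5 to 28.2 CPM in Sham. Monocyte markers summed to 2815 to 6667 CPM in RAS and 4046 to 12927 CPM in Sham. Their part in these values was not tested.

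**Figure D3:**
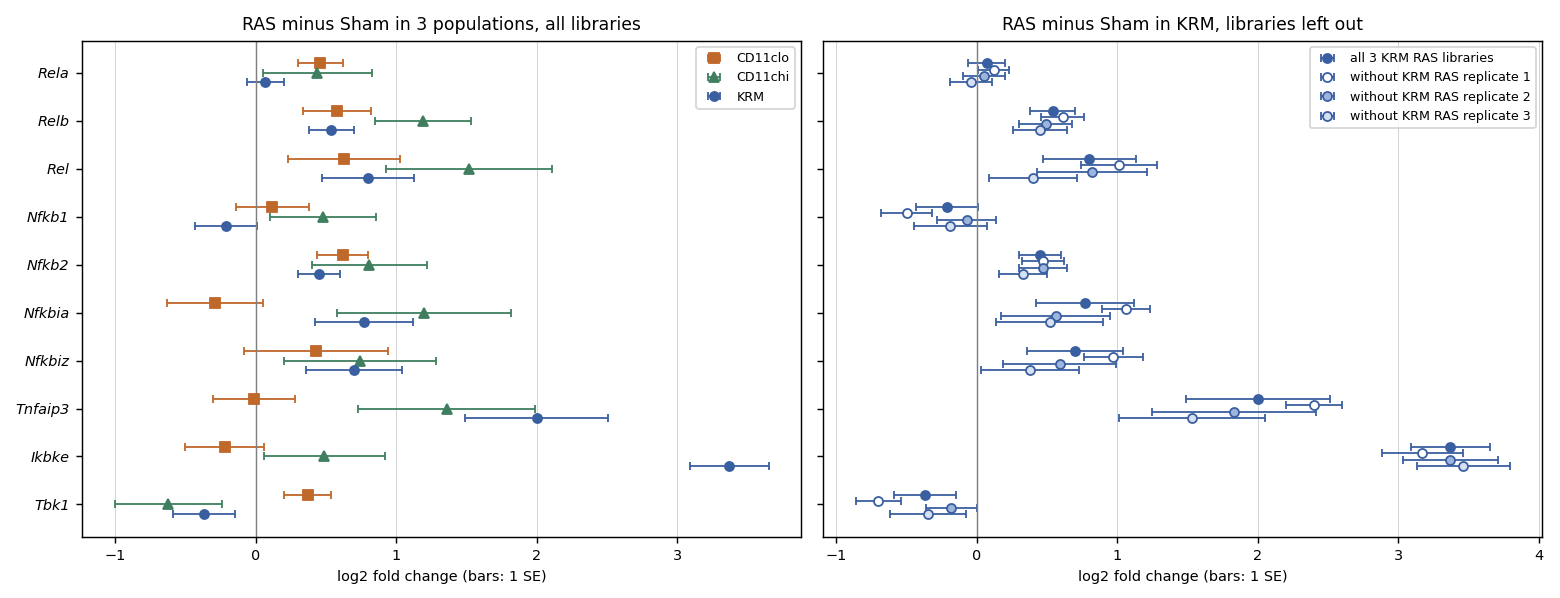
Log2 fold change from Sham to RAS with 1 SE for each gene, on the left in the 3 populations with all libraries, on the right in KRM with each KRM RAS library left out. Ikbke in KRM stands at 3.37, away from its values of 0.49 in CD11chiMϕ and -0.22 in CD11cloMϕ, and Tnfaip3 in KRM moves from 2.00 to 1.53 without replicate 3.

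The difference between responses was fitted as an interaction, and for the 10 genes its values are again a description. The response of Ikbke in KRM exceeded that in CD11cloMϕ by 3.54 ± 0.40 and that in CD11chiMϕ by 2.82 ± 0.50 on the log2 scale. For Tnfaip3 the difference was 1.93 ± 0.61 from CD11cloMϕ and 0.58 ± 0.85 from CD11chiMϕ. For Tbk1 it was -0.78 ± 0.31 and 0.20 ± 0.47, of opposite sign. Over the 10 genes 7 differences from CD11chiMϕ were negative and 3 positive, with a median of -0.41 against 0.09 over all genes. From CD11cloMϕ 5 were negative and 5 positive, with a median of -0.01 against 0.02 over all genes.

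The comparison of populations in Sham kidneys asks how the resident macrophages stood before ischemia. Against CD11cloMϕ the log2 fold change in KRM was -5.90 ± 0.21 for Ikbke, -2.62 ± 0.20 for Tnfaip3, -2.24 ± 0.28 for Nfkbia, -1.20 ± 0.15 for Nfkb1 and -0.91 ± 0.13 for Nfkb2 (4 KRM and 3 CD11cloMϕ libraries). These 5 lay below CD11cloMϕ without overlap and Tbk1 lay above it, at 0.42 ± 0.14, beside 48.8% of all genes without overlap. Rel stood at -0.73 ± 0.29, Relb at -0.42 ± 0.15, Nfkbiz at -0.25 and Rela at 0.08. Without CD11cloMϕ Sham replicate 3 Rel was at -0.43 and Nfkbiz at 0.01, while Ikbke was at -6.03 and Tnfaip3 at -2.51.

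Against CD11chiMϕ the log2 fold change in KRM was -3.38 ± 0.31 for Ikbke, -1.37 ± 0.34 for Nfkb1, -1.18 ± 0.30 for Nfkbia and -1.09 ± 0.31 for Tnfaip3 (4 KRM and 3 CD11chiMϕ libraries). Ikbke, Nfkbia and Tnfaip3 lay below without overlap, beside 24.4% of all genes. Tbk1 was at 0.43 ± 0.22 and Relb at -0.37 ± 0.20, and these overlapped. Without CD11chiMϕ Sham replicate 3, Ikbke was at -3.55, Nfkb1 at -1.70 and Nfkbia at -1.30, and without CD11chiMϕ Sham replicate 1 Nfkbia was at -0.75.

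CD11chiMϕ lay below CD11cloMϕ for Ikbke, at a log2 fold change of -2.46 ± 0.26, and for Tnfaip3, at -1.50 ± 0.37, without overlap (3 libraries each, beside 26.8% of all genes without overlap). Nfkbia was at -1.04 ± 0.46 and overlapped. The 6 monocyte markers, Ly6c2 and Ccr2 among them, summed to 4046 to 12927 CPM in CD11cloMϕ Sham, 387 to 2237 CPM in CD11chiMϕ Sham and 561 to 853 CPM in KRM Sham. The 6 neutrophil markers summed to 895 to 1943 CPM in CD11cloMϕ Sham, 47.0 to 195 CPM in CD11chiMϕ Sham and 90.4 to 117 CPM in KRM Sham. The 6 dendritic cell markers summed to 76.7 to 198 CPM, 393 to 1865 CPM and 140 to 176 CPM in the same order, and the 6 B cell markers to 13.8 to 16.5 CPM, 20.7 to 58.5 CPM and 83.9 to 129 CPM. Their part in these differences was not tested.

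**Figure D4:**
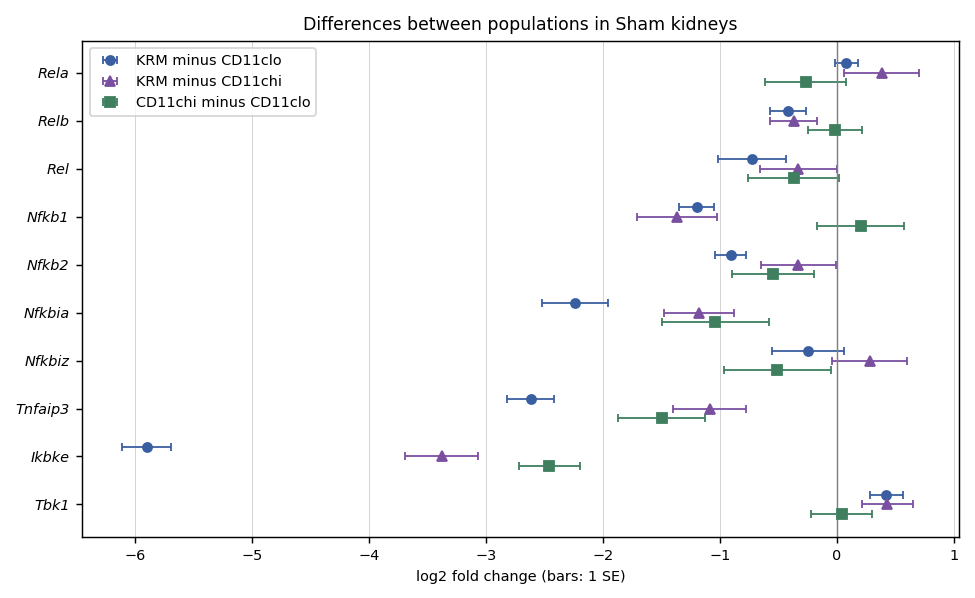
Log2 fold change with 1 SE of each gene between populations in Sham kidneys. Ikbke has the lowest value in each comparison, -5.90 for KRM minus CD11cloMϕ, -3.38 for KRM minus CD11chiMϕ and -2.46 for CD11chiMϕ minus CD11cloMϕ, while Rela stands at 0.08 for KRM minus CD11cloMϕ.

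The rest of the pathway was read from 48 genes: 4 other IkB proteins, 21 activators such as Ikbkb, Myd88 and Traf6, 12 brakes such as Cyld and Tnip1, and 11 genes of the TBK1 and IKKε axis such as Irf3 and Mavs. This list and the target list below were chosen with earlier results of these data known. Their counts, shares and p-values therefore describe these libraries and are no independent support. In KRM, 2 of the 48 rose with RAS and 0 fell by edgeR's quasi-likelihood test, at an adjusted p under 0.05. This was 4.17% of the list, beside 9.7% of all genes called and 7.77% called higher. Their median log2 fold change was -0.04 against 0.02 over all genes. At an unadjusted p under 0.05 there were 22 of them, and 4369 of all 12852 genes. Nfkbid, a nuclear IkB protein, was at 46.1, 40.5, 33.2 and 38.7 CPM in Sham and 55.3, 95.9 and 133 CPM in RAS (log2 fold change 1.37 ± 0.28, adjusted p = 0.0321 by edgeR). Optn, an adaptor that binds TBK1, was at 0, 0.424, 0.700 and 0.628 CPM in Sham and 0.983, 8.70 and 9.26 CPM in RAS (3.86 ± 0.95, adjusted p = 0.0451 by edgeR). RAS lay above Sham without overlap for both. No Sham library reached the filter's cutoff of 1.044 CPM for Optn, so it was tested only through the RAS libraries where it was high. Without KRM RAS replicate 1, 10 of the 48 were higher and 19 lower, beside 50.2% of all genes (28.1% higher and 22.1% lower). Without any 1 of the other 6 libraries 0 or 1 was called by edgeR, beside 0.216% and 0.246% of all genes without KRM RAS replicates 2 and 3, and 0.219%, 0.259%, 10.6% and 0.338% without KRM Sham replicates 1 to 4. In the difference between responses edgeR called none of the pathway genes or targets for KRM against CD11cloMϕ (10 of 48 and 9 of 22 at an unadjusted p under 0.05, as were 3289 of all genes), beside 0.245% of 13877 genes, and DESeq2 called 1419 genes in all. For KRM against CD11chiMϕ it called none of 14137 genes (0%), with 2999 at an unadjusted p under 0.05, and DESeq2 called 1221. Without KRM RAS replicate 1, edgeR called 6 pathway genes lower and 7 targets higher against CD11cloMϕ, beside 8.23% of all genes higher and 7.87% lower. Against CD11chiMϕ it then called 1 pathway gene higher, 2 lower and 3 targets higher, beside 6.56% and 0.836%.

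Of the 22 NF-kB target genes 21 could be tested in KRM, where 11 rose with RAS (52.4%) and 1 fell (4.76%), beside 7.77% and 1.94% of all genes, with a median log2 fold change of 1.85 against 0.02 over all genes. Because the list was chosen with earlier results of these data known, these values are a description. The risers were Ccl2, Cd83, Gadd45b, Icam1, Ier3, Il12b, Il1a, Il1b, Il6, Plaur and Ptgs2. Il1a, which encodes IL-1α, was at 3.37, 3.18, 2.55 and 2.72 CPM in Sham and 36.9, 67.8 and 74.5 CPM in RAS (4.45 ± 0.29, adjusted p = 0.0021 by edgeR). It was higher in all 3 RAS libraries and was called with each of the 7 libraries left out in turn. Il6 was at 0.120, 0.848, 0.0999 and 0.838 CPM in Sham and 1.18, 14.7 and 17.8 CPM in RAS (4.73 ± 1.05, adjusted p = 0.0369 by edgeR). Ptgs2, the inducible cyclooxygenase, was at 3.37, 8.05, 5.30 and 13.2 CPM in Sham and 11.5, 213 and 280 CPM in RAS (4.62 ± 0.96, adjusted p = 0.0325 by edgeR). In replicate 1 Ptgs2 lay inside the Sham range and Il6 just above it. No Sham library reached the filter's cutoff of 1.044 CPM for Il6, the only one of the 12 called targets tested only through the RAS libraries. Ccl3, a chemokine, fell by 1.01 ± 0.19 on the log2 scale (adjusted p = 0.0269 by edgeR), from a mean of 1245 CPM to 564, 531 and 621 CPM. Without KRM RAS replicate 1, 17 targets were higher and 2 lower, beside the 28.1% and 22.1% of all genes. Without KRM Sham replicate 3, 4 were higher and 2 lower, and without any 1 of the remaining 5 libraries only 1 was called.

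In the monocyte-derived populations no target passed the adjusted threshold with RAS. In CD11chiMϕ 17 of 21 had a positive log2 fold change, with a median of 1.33 against -0.09 over all genes. By edgeR 14 of the targets had an unadjusted p under 0.05, while DESeq2 called 9. In CD11cloMϕ 17 of 20 were positive, with a median of 0.89 against -0.02, 8 had an unadjusted p under 0.05 by edgeR, and DESeq2 called 1. Il1a was at 24.1, 21.7 and 44.0 CPM in CD11cloMϕ Sham and 15.96, 150, 231 and 469 CPM in RAS, so that replicate 1 lay below the Sham libraries and the others above them. None of the 48 pathway genes was called by edgeR in either population, with 9 and 7 at an unadjusted p under 0.05, and DESeq2 called 3 and 1.

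**Figure D5:**
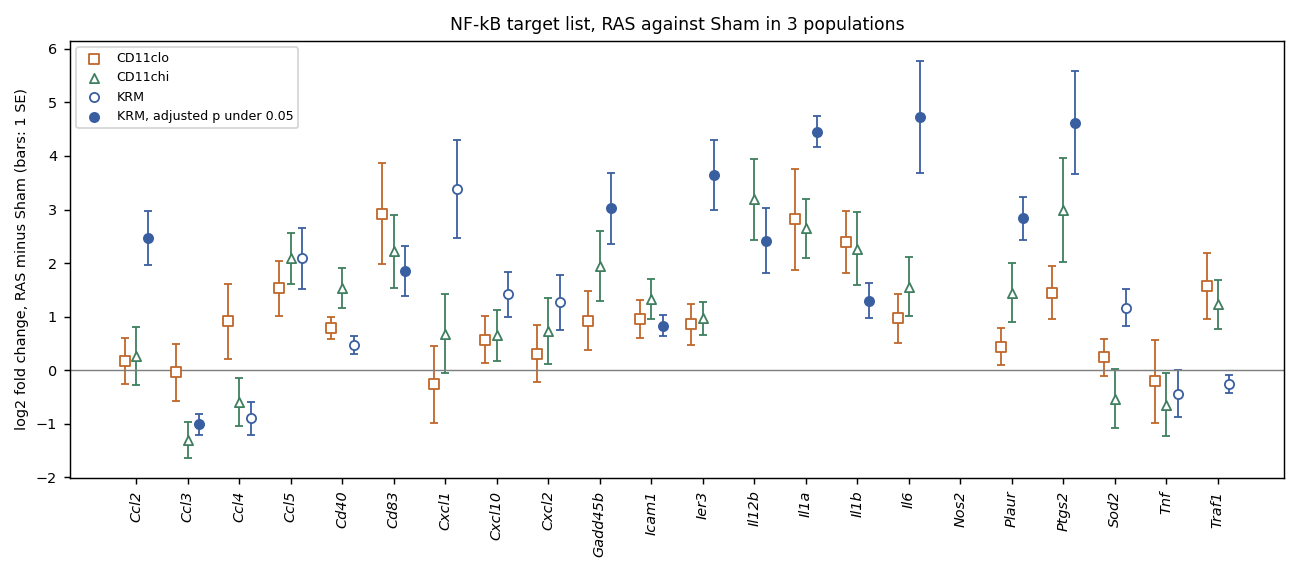
Log2 fold change from Sham to RAS with 1 SE of the NF-kB target genes in the 3 populations, 1 point per gene and population, filled where a KRM value had an adjusted p under 0.05, with values that were not tested left blank. In KRM Il6, Ptgs2 and Il1a stand at 4.73, 4.62 and 4.45, and Ccl3 stands at -1.01.

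In Sham kidneys more of the called pathway and target genes were lower than higher in KRM by edgeR, as were more of all called genes. Against CD11cloMϕ this balance of all genes turned with limma on the log2 table, with 2636 higher and 2378 lower. Against CD11cloMϕ 18 of the 48 pathway genes were lower and 8 higher, beside 41.8% of all genes called (22.3% lower and 19.5% higher). With the replicate number as a block these were 18 and 5, beside 34.3%. Nfkbid was lower by edgeR (-2.11 ± 0.15, adjusted p = 2.05e-05), as was Bcl3 (-0.97 ± 0.16, adjusted p = 0.00189), and Nfkbib averaged 40.2 CPM in KRM and 79.5 CPM in CD11cloMϕ (adjusted p = 0.00535). The remaining IkB gene of the list, Nfkbie, named after its values were seen, was higher (0.27 ± 0.09, adjusted p = 0.0494 by edgeR). Among activators the adaptor Myd88 was lower (-1.19 ± 0.22, adjusted p = 0.00324 by edgeR) and Ticam1, which encodes the adaptor TRIF, was higher (0.92 ± 0.20, adjusted p = 0.00748 by edgeR). Among brakes Tax1bp1, a partner of A20, was lower (-1.29 ± 0.11, adjusted p = 6.39e-05 by edgeR), as was Irak3 (-1.18 ± 0.14, adjusted p = 0.000362). In the interferon arm Irf7 was lower (-1.17 ± 0.18, adjusted p = 0.00137 by edgeR) and Mavs, the adaptor of the RNA sensors, was higher (0.80 ± 0.16, adjusted p = 0.00449).

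Of 21 targets, 10 were lower and 6 higher in KRM than in CD11cloMϕ. Plaur, the urokinase receptor, was at 4.70 to 7.21 CPM in KRM and 307 to 470 CPM in CD11cloMϕ (-6.06 ± 0.22, adjusted p = 1.34e-06 by edgeR). Il6 was at 0.0999 to 0.848 CPM in KRM and 19.04 to 25.8 CPM in CD11cloMϕ (-5.61 ± 0.65, adjusted p = 0.0003 by edgeR). Il6 reached the filter's cutoff of 1.073 CPM in no KRM library, and Il12b in no CD11cloMϕ library, so both were tested through the population where they were high. The 6 higher targets were Ccl3, Ccl4, Ccl5, Cd83, Il12b and Traf1, of which Il12b had at most 1 count in a CD11cloMϕ Sham library and 1.099 to 5.76 CPM in KRM Sham.

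Against CD11chiMϕ 2 of 47 pathway genes were lower in KRM, Nfkbid (-1.36 ± 0.23, adjusted p = 0.0211 by edgeR) and Tnip3, an A20-binding inhibitor (-2.79 ± 0.32, adjusted p = 0.00635 by edgeR). Of the targets 8 were lower and 0 higher, beside 5.12% of all genes called (4.12% lower and 1% higher). They were Ccl2, Cxcl1, Gadd45b, Ier3, Il1a, Il6, Plaur and Ptgs2, with Plaur at -3.81 ± 0.48 (adjusted p = 0.00826 by edgeR) and Il6, which again passed the filter only through CD11chiMϕ, at -4.44 ± 0.74 (adjusted p = 0.0201 by edgeR). With the replicate block 0 pathway genes and 2 targets were called, beside 0.718% of all genes, and without CD11chiMϕ Sham replicate 3 there were 6 lower pathway genes and 1 higher, beside 13.6%. Without CD11chiMϕ Sham replicate 1 or any 1 KRM Sham library, 1 pathway gene and 2 to 5 targets were called, beside 1.27% to 1.84%. With each of the 7 libraries left out in turn, Nfkbid was called 2 times and Il6 3 times, and Tnip3 and Plaur each time. Between CD11chiMϕ and CD11cloMϕ the only one of these genes called was Ccl5, at 33.8, 13.6 and 28.0 CPM in CD11chiMϕ and 1.86, 4.29 and 2.99 CPM in CD11cloMϕ (3.13 ± 0.51, adjusted p = 0.0492 by edgeR), beside 1.52% of all genes. The replicate block called 3 targets, beside 4.92%. Without CD11chiMϕ Sham replicate 1 or 2 or any 1 CD11cloMϕ Sham library edgeR called 0 genes, with 1805 at an unadjusted p under 0.05 without CD11chiMϕ Sham replicate 1.

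Over the 21 libraries and 8893 genes, the log2 levels most like those of Ikbke were of Pdlim1 (Pearson r 0.96), C3 (0.94) and 1190002H23Rik (0.94). Pdlim1, a cytoskeletal adaptor, averaged 0.954 CPM in KRM Sham, 8.60 CPM in KRM RAS and 144 CPM in CD11cloMϕ Sham. C3, the central complement component, averaged 23.5, 177 and 826 CPM in the same groups. For Tnfaip3 they were Ptp4a1 (0.97), Csrnp1 (0.96) and Etf1 (0.96). The closest gene to Nfkbia was Cdkn1a (0.94), and Bcl3 was among the 3 closest to Nfkb2 (0.93). Within the set the closest pairs were Tnfaip3 with Nfkbia (0.86), Relb with Rel (0.84) and Tnfaip3 with Rel (0.83). These values describe libraries that share populations, depth and the marker differences given above.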

How the data were processed

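RNA of sorted kidney macrophages was sequenced in 21 libraries with an ultra-low-input kit and Nextera XT. The authors aligned reads to mm10 with OSA, assigned them to Ensembl genes and deposited estimated counts per gene, 9.7% to 14.2% of them not whole in a library. They also deposited a quantile-normalized table whose values are on the log2 scale, as log2(TPM + 1). The KRM RAS replicate 1 columns of the 2 tables did not correspond (r = 0.0900, against 0.916 to 0.966 for the other 20 libraries), and which of the 2 holds the labelled library could not be settled. Counts were used. The authors' own tests used DESeq2. Both tables hold values per library, with 0 columns without a sample.

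Counts were rounded, and the 37620 rows were summed by symbol to 34236. The main test was edgeR 4.0.16 in R 4.3.3: TMM, filterByExpr (minimum count 10, total 15) and the two-sided quasi-likelihood F test on the groups compared, with Benjamini-Hochberg adjustment over all genes tested and a threshold of 0.05. Log2 CPM used a prior count of 2. Totals of 6891177 or more leave counting error small for well-counted genes, but not for genes at few counts, such as Ikbke in KRM Sham at 9 to 21 counts. Every replicate pair differed by more than counting noise.

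The 10 genes and all gene lists were chosen with earlier results of these data known. Genes of the lists named with their values are the up to 3 with the largest log2 fold change among those called in a comparison. Ccl3 in KRM, Il1a in CD11cloMϕ and Nfkbie are given outside this rule. Of 160 list genes 159 were found, 5 under another symbol. Promoter sequences are from RefSeq (GRCm38.p6) and gene positions from GENCODE on GRCm38. Alternatives were other size factors, no filter, 1 fit over all 6 groups, each library left out, limma 3.58.1 fitted to the log2 values, DESeq2 1.42.0 and a replicate block. Limma without the KRM RAS 1 column was added after seeing the data. Between populations in Sham, same-numbered libraries deviated together (r 0.202 to 0.646 in every pair), though the labels do not pair them. The main fit did not use this, so its errors and p-values are unpaired, and the block was fitted as an alternative. The method was tested on simulated data. Tables were handled with Python 3.11.15 and pandas 2.3.3.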

Additional observations from a re-analysis of the deposited data

Results flagged for a closer look

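Relb in CD11chiMϕ RAS had a library far from the others. Replicate 1 was at 62.0 CPM, the next lowest at 130 CPM and the highest at 139 CPM, so that the gap took up 0.881 of the range. Of the 30 groups of 4 libraries tested over the 10 genes, 1 was set apart in this way, and chance alone sets apart about 1 in 20.

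Ikbke had different RAS to Sham values in KRM and CD11cloMϕ. The log2 difference between the responses was 3.54 (SE 0.396). Ikbke was chosen on its values in these libraries, so the difference is a description and was not tested independently.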

How the results depend on the processing

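Among values of single genes 1634 moved by less than the spread, 36 moved by more, and none that was called changed sign. Among the values marked as headline results 99 moved and 248 did not. Counts of the 10 genes below describe genes chosen on these libraries and support nothing. With the replicate number as a block, RAS against Sham in KRM gave 0 of the 10 genes, 0 pathway genes and 1 target, and 42 genes in all instead of 1247. Same-numbered Sham and RAS libraries did not deviate together in every pair of any population (r -0.166 to 0.211 in KRM, -0.196 to -0.0150 in CD11chiMϕ and 0.0754 to 0.325 in CD11cloMϕ), so this block rests on a shared number. The block gave 89 genes instead of 635 for KRM against CD11chiMϕ in Sham (0, 0 and 2), 595 instead of 184 for CD11chiMϕ against CD11cloMϕ (3 targets) and 2 instead of 34 for the difference between the KRM and CD11cloMϕ responses, and for KRM against CD11cloMϕ it took higher pathway genes from 8 to 5 and called Rel in place of Tbk1. No other total was changed by over 1.5 times.

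DESeq2 called more. For RAS it gave 3 pathway genes and 9 targets in CD11chiMϕ (188 genes instead of 0), 1 and 1 in CD11cloMϕ (107 instead of 0) and 11 pathway genes in KRM (3166). In Sham it gave 4 of the 10 and 5 pathway genes for KRM against CD11chiMϕ (1811 genes) and 2, 2 and 10 targets for CD11chiMϕ against CD11cloMϕ (1213). It called 1 and 2 of the 10 for the KRM response against CD11chiMϕ (1221 genes instead of 0) and CD11cloMϕ (1419), and 15 genes instead of 0 between the CD11chiMϕ and CD11cloMϕ responses. Limma on the log2 table gave 4 of the 10 and 7 pathway genes for RAS in KRM at either pseudocount (2599 and 2651 genes, the former 1105 higher and 1494 lower against 998 and 249), and 8 and 29 without the KRM RAS 1 column (7354 genes). It called 0 of the 10 in Sham for KRM against CD11chiMϕ (389 and 381 genes, the former 125 higher and 264 lower against 124 and 511) and for CD11chiMϕ against CD11cloMϕ (103 and 93). For the KRM response against CD11cloMϕ it called 3, 3 and 4 (1459, 1263 and 3932 genes), and against CD11chiMϕ 133, 30 and 1094 genes. It gave Nfkb1 in KRM 0.31 instead of -0.21 with that column in place. Its median over all genes for RAS in KRM was -0.15 instead of 0.02.

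Library size alone gave 4 of the 10 for RAS in KRM (1389 genes) and, like no filter, 0 targets for CD11chiMϕ against CD11cloMϕ in Sham (113 and 95 genes). It moved the median of all genes to 0.26 and 0.21 in the KRM responses against CD11chiMϕ and CD11cloMϕ, from 0.09 and 0.02. For the latter it gave 77 genes, no filter 74 and median-of-ratios factors 59, and no filter gave 395 genes for KRM against CD11chiMϕ. The fit over all 6 groups gave 2, 0 and 4 for KRM against CD11chiMϕ in Sham (636 genes), 15 pathway genes for KRM against CD11cloMϕ (3447 genes instead of 5178), 1 pathway gene and 3 targets for CD11chiMϕ against CD11cloMϕ (818 genes), 1 of the 10 for the KRM and CD11chiMϕ responses (16 genes), 58 genes for the KRM and CD11cloMϕ responses and 5 for RAS in CD11chiMϕ.

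With each library left out, RAS in KRM gave 1 to 8 of the 10, 0 to 29 pathway genes, 1 to 19 targets and 28 to 7070 genes, the highest without KRM RAS replicate 1, with 28 to 43 genes without KRM RAS replicate 2 or 3 or KRM Sham replicate 1, 2 or 4. KRM against CD11chiMϕ in Sham gave 1 to 4, 1 to 7, 2 to 10 and 155 to 1717, and CD11chiMϕ against CD11cloMϕ 0 to 1, 0 to 2, 0 to 5 and 0 to 704, the highest counts of genes without CD11chiMϕ Sham replicate 3. The former fell to 155 to 224 genes without CD11chiMϕ Sham replicate 1 or any KRM Sham library. Without replicate 3 of both populations the former gave 4, 4, 11 and 1493, and the latter 2, 6, 10 and 1897. RAS in CD11chiMϕ gave 0 to 1 targets and 0 to 39 genes. The KRM response gave 0 to 1 of the 10 against CD11chiMϕ (0 to 1097 genes) and 0 to 3 against CD11cloMϕ (0 to 2357 genes). Nfkb2 in KRM against CD11chiMϕ moved from -0.33 to 0.15 without CD11chiMϕ Sham replicate 1. The causes were not tested. Depth limited Ikbke in KRM Sham, at 9 to 21 counts.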
